A study of Tribolium castaneum with 2 samples.

Results

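Genome assemblies of insects are built of stretches of joined sequence, the scaffolds, which are placed on linkage groups where genetic markers allow it. A scaffold usually stops where assembly becomes difficult, often at a repeat such as a transposable element or a satellite, and only some scaffold ends are tips of chromosomes. In insects that methylate their DNA, the methylated cytosines lie mostly in CpGs of gene bodies, while in some species repeats are methylated as well. The ends of scaffolds are therefore a part of the genome where read depth and bisulfite conversion may differ from the rest of a chromosome.

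The ends described here belong to sequences of *T. castaneum* that are placed on 1 of 10 linkage groups and whose last listed position is at least 100000. Of 176 sequences with a linkage group, 164 met this rule, and each gave 2 ends. An end holds all listed positions within 10000 bp of the first or of the last listed position of its sequence, which amounts to 413626 of the 19983652 positions listed in the series. The other 16813848 positions of the same 164 sequences are called the interior. The ends make up 2.40% of the length of these sequences and 2.40% of their listed positions. Among the sequences just inside and just outside the limit, the last positions were 101772 and 98809. The first listed position lay between 3 and 370, with a median of 38.5, so the low-coordinate ends start close to the start of the assembled sequence. How far the last listed position lies from the end of the sequence is not known. The tables do not say which ends are chromosome tips, and gene names, repeats and base composition at the ends were not analysed here.

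The DNA came from whole genome bisulfite sequencing (WGBS) of pooled, untreated eggs of the GA-2 line, the line of the reference genome. Each pool held many eggs of mixed age, frozen on the second day after laying, and both pools form 1 condition without a comparison group. The tables list for each cytosine the reads that stayed unconverted and those that were converted by bisulfite, and the sum of both is the depth of the position. In the whole series, replicate 1 had 42534665 reads at 14503020 positions and replicate 2 had 55723118 reads at 16480367 positions. A read counts at each cytosine it covers, and positions without a read are not listed.

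The ends were covered more deeply than the interior. In replicate 1 the mean depth of a listed position was 2.66 reads at the ends and 2.22 reads in the interior. In replicate 2 it was 3.08 and 2.62 reads. The ratio of ends to interior was thus 1.20 and 1.18, or 1.19 ± 0.0140 (SD, n = 2), while the median depth was 2 reads at the ends and in the interior of both replicates. The difference lay in the deeply covered positions. At least 10 reads covered 2.37% of the end positions and 0.377% of the interior positions in replicate 1, and 3.01% and 0.684% in replicate 2. More than 100 reads, summed over the replicates, covered 388 positions at the ends (0.0938%) and 2403 in the interior (0.0143%), so that 13.9% of such positions lay at the ends. The deepest position of the ends had 2550 summed reads and that of the interior 6674.

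To compare each sequence with itself, the mean depth of both of its ends was divided by that of its interior. The median ratio over the 164 sequences was 1.04 in each replicate. The ends were deeper in 106 sequences and shallower in 58 in replicate 1 (exact two-sided sign test, p = 0.000221), and deeper in 104 and shallower in 60 in replicate 2 (exact two-sided sign test, p = 0.000736). In both replicates the ends were deeper in 93 sequences and shallower in 47, and 24 sequences differed between the replicates. The middle of the distribution was narrow, with quartiles of 0.973 and 1.18 in replicate 1, and its upper tail reached 3.63. The sequences are parts of 1 genome read in the same pair of libraries, so the p-values describe the spread between sequences and not between animals. With ends of 20000 bp the difference was significant in replicate 1 only (exact sign test, p = 0.00976, and 0.0722 in replicate 2). It was not significant for the low-coordinate or the high-coordinate end alone (exact sign test, p = 0.310 and 0.815 in replicate 1). Interior stretches of 10000 bp had a median ratio of 0.976 to the mean of their interior. An even split is thus not their level, and these tests cannot show that such ends equal the interior.

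The depth was highest in the outermost kilobase, where most sequences were deeper than their own interior. From 100 to 250 bp from the end, the mean depth was 5.02 reads in replicate 1 and 5.86 reads in replicate 2, and from 250 to 500 bp it was 4.46 and 5.09 reads. The outermost 100 bp had less, with 3.82 and 4.39 reads. Further in, the mean fell from 3.07 and 3.56 reads between 500 and 1000 bp to 2.28 and 2.64 reads between 9000 and 10000 bp. Just beyond the limit of the ends, between 10 and 20 kb, it was 2.22 and 2.60 reads, close to the mean of the interior. Between 100 and 250 bp, 124 of the 164 sequences in replicate 1 and 121 in replicate 2 were deeper than their own interior, with median ratios of 1.38 and 1.43. Between 3000 and 4000 bp, 66 and 68 of 163 sequences were, and the median ratio was 0.967 and 0.965. Between 10 and 20 kb, in the interior itself, it was 59 and 57 of 164 sequences, with median ratios of 0.979 and 0.972.

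**Figure D1:**
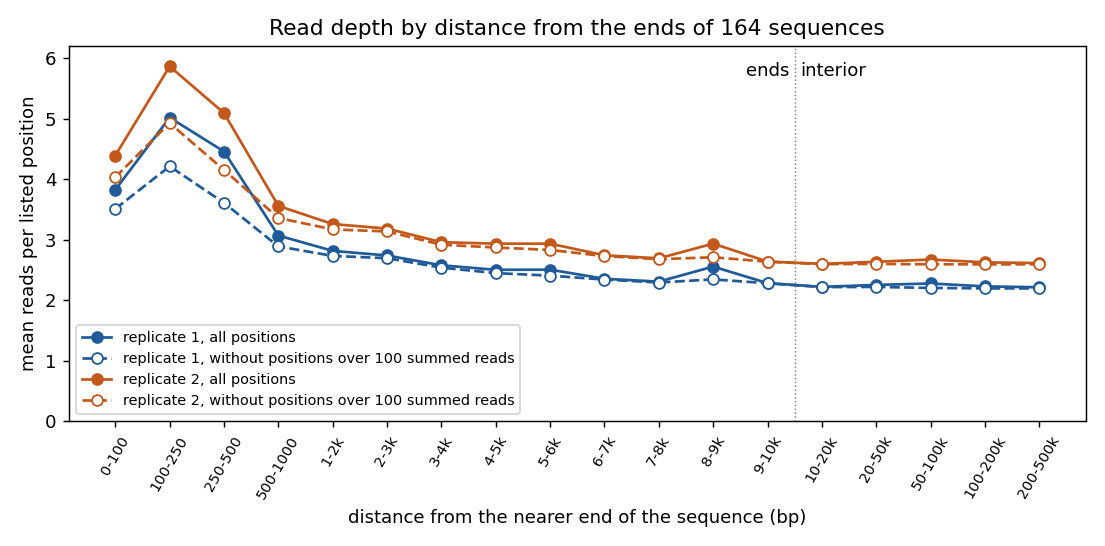
Mean reads per listed position (y axis) against the distance from the nearer end of the sequence in bp (x axis, bins of unequal width), pooled over 164 sequences, for replicate 1 (blue) and replicate 2 (orange). Solid lines hold all positions and dashed lines leave out positions with over 100 summed reads. Depth peaks at 5.02 and 5.86 reads between 100 and 250 bp and comes down to 2.22 and 2.60 reads between 10 and 20 kb.

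With ends of only 1000 bp, a width chosen after the profile was seen, the ends were deeper than the rest in 123 of 164 sequences in replicate 1 and in 126 in replicate 2, with a median ratio of 1.26 and 1.23. When instead this first kilobase was left out of the ends of 10000 bp, the ends were deeper in 77 and 74 of 164 sequences (exact two-sided sign test, p = 0.482 and 0.241). The median ratio was 0.992 and 0.991. Stretches of the interior as long as an end had a median ratio of 0.976 to the mean of their interior. An even split is therefore not their level, and this test cannot show that the rest of the ends equals the interior. The elevated depth near the end did not depend on the extreme positions alone. Without positions of over 100 summed reads, the mean depth between 100 and 250 bp was still 4.21 reads in replicate 1 and 4.93 reads in replicate 2.

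A small number of ends were deep over a longer stretch. To judge single ends, the interior was cut into 13062 windows of the same length with at least 100 listed positions in each replicate, and the depth of each window or end was divided by the mean of the interior of its own sequence. Of the 328 ends, 26 (7.93%) had at least 1.5 times the depth of the interior in both replicates, while 1.46% of all 13390 ends and windows and 1.30% of the interior windows did. At least 2 times the depth was found at 13 ends (3.96%), against 0.702% of all ends and windows. No end and no window (0%) had at most 1 / 1.5 of the depth of its interior in both replicates. Positions without a read are not listed, so the mean depth cannot fall below 1 read. Low coverage thus lowers the ratio little, and this 0% says little about poorly covered ends or windows. Interior windows themselves lay mostly below the mean of their interior, with a median ratio of 0.976. The median ratio of the ends was 1.01. In both replicates 144 ends (43.9%) were deeper than their interior, against 22.3% of all ends and windows, and 122 ends (37.2%) were shallower, against 54.0% of the interior windows. The ends were thus spread more widely, with an SD of the log2 ratio of 0.385 over the ends and 0.194 over the windows. Their 95th percentile was 1.82, while that of the windows was 1.12, and the 5th percentiles were 0.864 and 0.859. With the first kilobase left out of each end, 20 ends had at least 1.5 times the depth of the interior, and 19 of them were among the 26. These 26 ends, chosen by their depth, held 22.1% of the end reads in replicate 1 and 21.2% in replicate 2. The other 302 ends had a mean depth of 2.31 and 2.69 reads, where the whole interior had 2.22 and 2.62 reads.

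**Figure D2:**
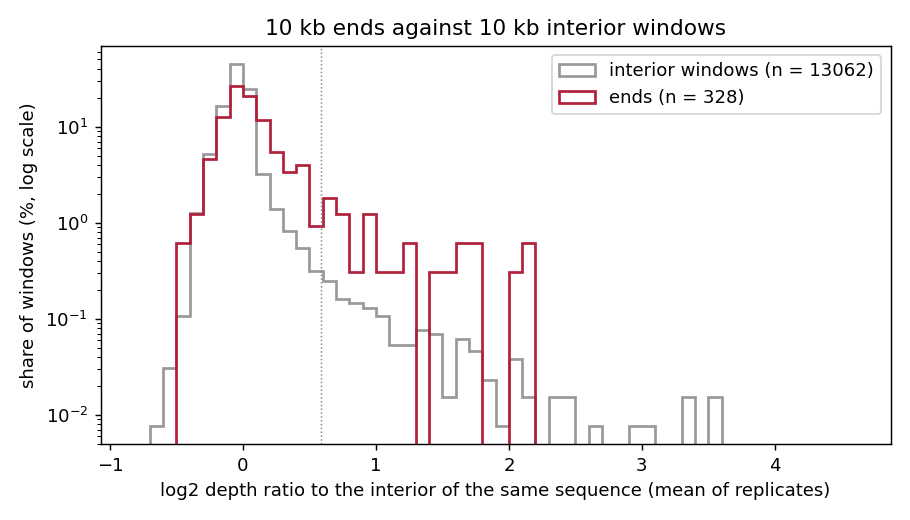
Share of windows in percent (y axis, log scale) by log2 ratio of their depth to the interior of the same sequence, averaged over both replicates (x axis), for 328 ends (red) and 13062 interior windows (grey), with a dotted line at a ratio of 1.5. The lower flanks lie together, and the ends have the heavier upper tail up to a ratio of 4.57, although a few interior windows lie above the deepest end.

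Single ends had similar ratios in both libraries, although not all kept their direction. In both replicates 144 of the 328 ends were deeper and 122 shallower than their interior, and the others differed between the replicates. Across the 328 ends, Pearson's r of the log2 ratios was 0.981, a description of ends of 1 genome that share their sequence in both libraries. In replicate 1 the depth of an end ranged from 1.64 to 12.3 reads with a median of 2.22, and in replicate 2 from 1.73 to 14.0 reads with a median of 2.63. Of the ends with at least 1.5 times the depth, 16 were low-coordinate and 10 high-coordinate ends, and they lay on 25 sequences, since only LG3_WGA40_2, named after its values were seen, had such a depth at both of its ends. All 10 linkage groups had at least 1 of them.

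**Figure D3:**
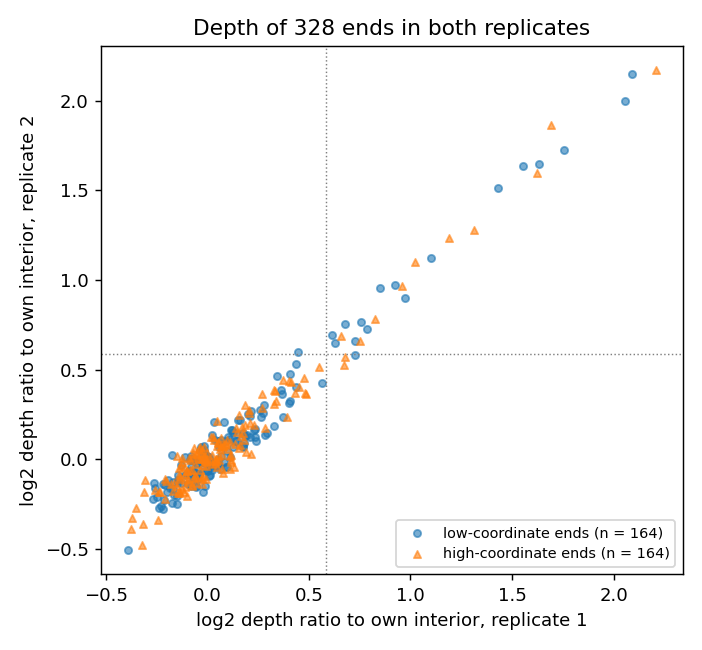
Log2 ratio of the depth of each end to the interior of its own sequence in replicate 1 (x axis) and replicate 2 (y axis) for 164 low-coordinate ends (circles) and 164 high-coordinate ends (triangles), with dotted lines at a ratio of 1.5. The points follow the diagonal, and 26 ends lie above both lines.

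The 3 deepest ends relative to their interior differed in how their reads were arranged. The high-coordinate end of LG6_WGA106_2 (positions 276935 to 286935) had a mean depth of 12.3 reads in replicate 1 and 14.0 reads in replicate 2, where the interior of the sequence had 2.66 and 3.11 reads. The listed positions were deep along the end, with a mean of 19.5 summed reads within the first 1000 bp, 23.0 between 2000 and 5000 bp and 37.2 beyond 5000 bp, but they were unevenly placed. Of its 1868 positions, 1633 lay within the outer 5000 bp, or 327 per kb, and 235 beyond, or 47.0 per kb, where the interior of the sequence had 113 per kb listed in either replicate. The end held 51 positions with over 100 summed reads, none with over 215.

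The low-coordinate end of LG1=X_WGA1_2 (positions 33 to 10033), on the X chromosome, had 8.23 and 9.45 reads per position, where the interior had 1.93 and 2.13 reads. Here depth was highest within the outer 2000 bp, with 28.4 and 30.5 summed reads per position in the first and the second kilobase, dropped to 4.87 summed reads between 2000 and 5000 bp and was 8.89 summed reads over the 633 positions beyond 5000 bp, where the interior had 3.07. The low-coordinate end of LG10_WGA166_2 (positions 76 to 10076) had 11.2 and 13.0 reads per position, where the interior had 2.70 and 3.25 reads. This end contains the deepest position of all ends, with 2550 summed reads at a distance of 8071 bp, although only 25 of its 1665 positions had over 100 summed reads.

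The 3 ends with the lowest depth relative to their interior all belonged to linkage group 9. They were the low-coordinate end of LG9_WGA153_2 with 1.66 and 1.82 reads per position, the high-coordinate end of LG9_WGA145_2 with 1.64 and 1.73 reads, and the high-coordinate end of LG9_WGA144_2 with 1.65 and 1.92 reads. Their ratios to the interior, averaged over the replicates, were 0.733, 0.758 and 0.767. The range of these low values is small compared with that of the deep ends, which reached a ratio of 4.57. The measure itself limits the low side, because positions without a read are not listed and the mean cannot fall below 1 read. The positions with over 100 summed reads were confined to 33 of the 328 ends (10.1%), against 2.2% of all ends and windows, and the 10 ends with the most of them held 282 of the 388.

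Pooled over the ends of a linkage group, the depth was higher than in the interior for each of the 10 groups in both replicates. The ratio was highest on linkage group 6, with 1.60 in replicate 1 and 1.57 in replicate 2, and lowest on linkage group 2, with 1.07 and 1.06. Within linkage groups, 7 of 16 sequences of linkage group 5, 7 of 15 of linkage group 7 and 7 of 15 of linkage group 8 had deeper ends in replicate 2, which is fewer than in replicate 1, where it was 10 in each of these groups. Linkage group 6 had 4 ends with at least 1.5 times the depth among its 28 ends and held 115 of the 388 deep end positions, while linkage group 5 held none. On the X chromosome the interior was shallower than on any other linkage group, with 1.96 and 2.29 reads per position, and the ends had 2.47 and 2.86 reads. Of its 13 sequences, 11 in replicate 1 and 12 in replicate 2 had deeper ends. Without the X chromosome the ends were deeper in 95 of the remaining 151 sequences in replicate 1 and in 92 in replicate 2.

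**Figure D4:**
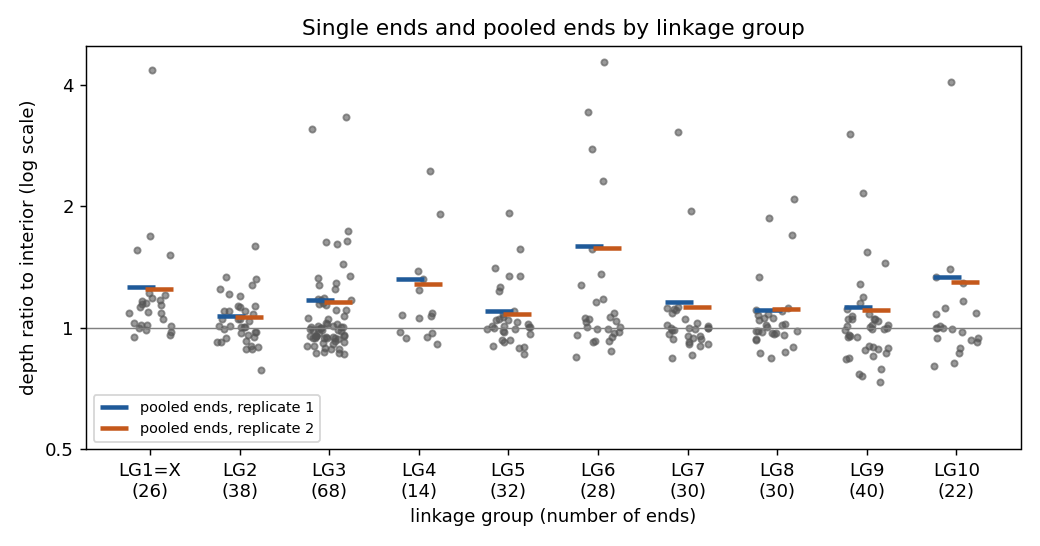
Ratio of depth at the ends to depth in the interior (y axis, log scale) by linkage group, with the number of ends in brackets (x axis). Grey points are single ends relative to the interior of their own sequence, averaged over both replicates, and coloured bars are the pooled ends of the group in replicate 1 (blue) and replicate 2 (orange), which run from 1.06 on linkage group 2 to 1.60 on linkage group 6.

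The density of listed positions depends on how many cytosines a stretch contains and on whether reads cover them. In replicate 1 there were 91.7 listed positions per kb at the ends and 91.0 per kb in the interior, and in replicate 2 there were 104 per kb in each. Compared within sequences, the ends were denser in 92 of 164 sequences in replicate 1 (exact two-sided sign test, p = 0.138) and in 93 in replicate 2 (exact two-sided sign test, p = 0.101), with a median ratio of 1.02 in each. Single ends varied from 16.4 to 168 listed positions per kb in replicate 1, a range that was not compared with that of interior windows of the same length. For positions with at least 5 reads, however, the ends were denser in 110 sequences in replicate 1 and in 101 in replicate 2 (exact two-sided sign test, p = 1.46e-05 and 0.00373), which includes the effect of depth. The outermost kilobase was denser in 103 and 110 sequences (p = 0.0013 and 1.46e-05 in the same exact test), a width again chosen after the profile was seen. By the rule an end begins at a listed position, while the interior keeps its stretches without one. This comparison also includes the effect of depth, and the share of either was not tested. Between 100 and 250 bp the density was 109 per kb in replicate 1 and 123 per kb in replicate 2, where depth was also highest.

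Stretches of over 500 bp without a listed position took 3.18% of the length of the ends and 4.83% of the interior. The longest was 2899 bp at the ends and 109807 bp in the interior, where a stretch can be longer than an end. With these stretches left out of the length, the pooled density was slightly lower at the ends than in the interior. It was 94.7 against 95.6 listed positions per kb in replicate 1 and 107 against 109 in replicate 2, a difference that was not tested. Positions that were directly adjacent to each other in runs of at least 3 made up 22.4% of the end positions and 22.0% of the interior positions. Both replicates listed 55.0% of the end positions and 54.6% of the interior positions.

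Non-conversion, the share of reads that stayed unconverted, was low at the ends. In replicate 1, 314 of 798915 reads at the ends were unconverted, which is 0.0393% (95% Wilson interval 0.0352% to 0.0439%), and 10289 of 27009615 reads in the interior, which is 0.0381% (0.0374% to 0.0388%). In replicate 2, 620 of 1048561 reads at the ends were unconverted, which is 0.0591% (its interval is 0.0547% to 0.0640%), and 20220 of 36269451 reads in the interior, which is 0.0557% (0.0550% to 0.0565%). The level of the ends was 1.03 times that of the interior in replicate 1 (95% interval 0.922 to 1.15, two-sided Fisher's exact test, p = 0.581) and 1.06 times in replicate 2 (0.979 to 1.15, two-sided Fisher's exact test, p = 0.148). A difference between ends and interior was not detectable, and these intervals leave room for an increase of the rate at the ends of up to 1.15 times. All intervals describe the error of counting reads, and because 1 molecule spans several cytosines the true error is larger. The replicates differed more from each other than the ends from the interior. Averaged over both, non-conversion was 0.0492% ± 0.0140 at the ends and 0.0469% ± 0.0125 in the interior (SD, n = 2).

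**Figure D5:**
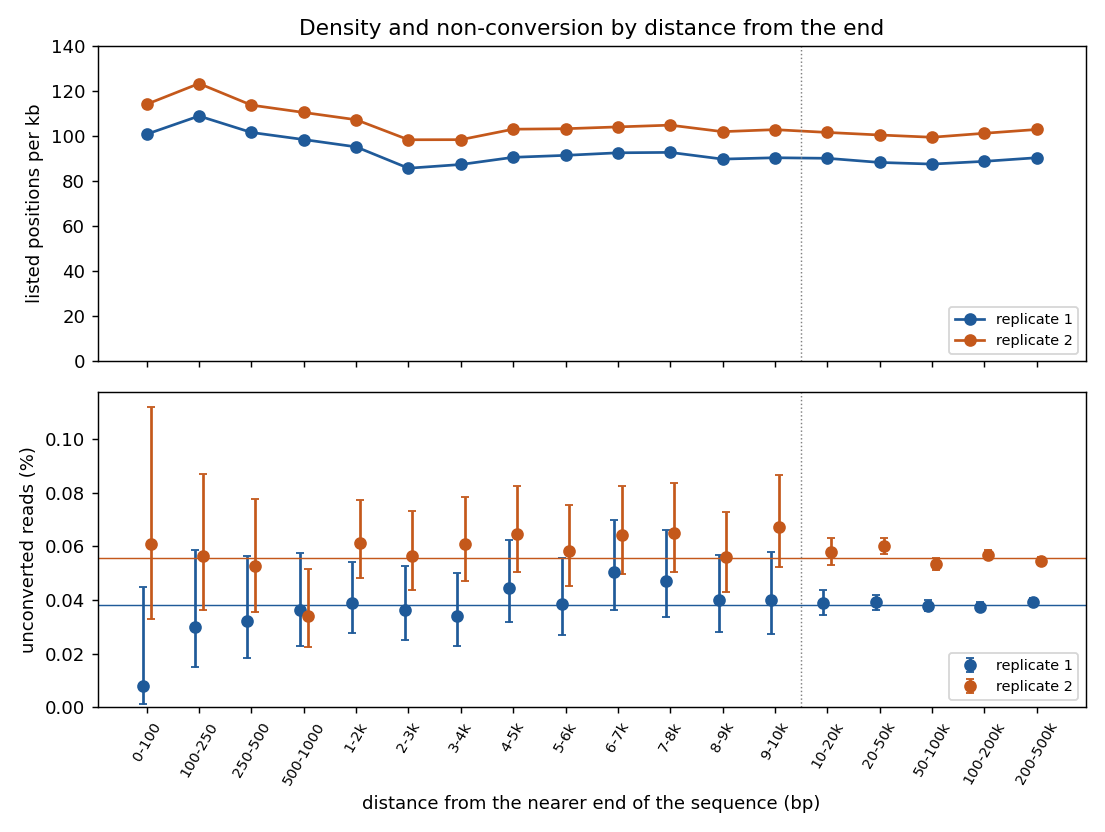
Listed positions per kb (upper panel) and unconverted reads in percent with 95% Wilson intervals (lower panel) against the distance from the nearer end in bp (x axis), for replicate 1 (blue) and replicate 2 (orange), with horizontal lines at the level of the interior. Density is highest between 100 and 250 bp, while the intervals of non-conversion within 10 kb of the end include the level of the interior in every bin except 500 to 1000 bp in replicate 2, where it was 0.0341%.

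At the number of reads available, no difference in non-conversion was detectable for the deeply covered stretches either. Within the outermost 1000 bp the level was 0.810 times that of the rest in replicate 1 (two-sided Fisher's exact test, p = 0.218) and 0.841 times in replicate 2 (p = 0.142, same exact test). At the 26 ends with at least 1.5 times the depth, 0.0346% of the reads were unconverted (95% Wilson interval 0.0269% to 0.0444%) in replicate 1 and 0.0571% (0.0480% to 0.0679%) in replicate 2. At the other 302 ends the level was 0.0406% (0.0359% to 0.0460%) and 0.0597% (0.0546% to 0.0652%), so the intervals overlap within each replicate. By side, 0.0408% and 0.0578% of the reads were unconverted at the low-coordinate ends and 0.0377% and 0.0604% at the high-coordinate ends.

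At least 1 unconverted read was found at 310 end positions in replicate 1, which is 0.103% of its end positions, and at 615 in replicate 2, which is 0.181%. In the interior the shares were lower, at 0.0839% and 0.145%, and over all sequences of the assembly they were 0.108% and 0.183%. The interior also had fewer reads per position than the ends, and the difference between these shares was not tested. The unconverted positions were spread over many ends. Summed over the replicates, 36 of the 328 ends had no unconverted read, 293 had at most 5 and 12 had at least 10, with a median of 2. The interior windows also had a median of 2, and 14.1% of them had none, against 11.0% of the ends. The end with the most was the deep high-coordinate end of LG6_WGA106_2, with 5 unconverted reads in replicate 1 and 19 in replicate 2, or 0.0544% of its reads. The low-coordinate ends of LG10_WGA166_2 and LG3_WGA53_2 followed with 15 and 13 unconverted reads, or 0.0437% and 0.0491% of their reads, and the low-coordinate end of LG9_WGA149_2 also had 13, or 0.0632%. The low-coordinate end of LG3_WGA53_2 was also covered deeply, with 7.18 and 8.54 reads per position against 2.13 and 2.58 reads in the interior of its sequence. Of the 12 ends with at least 10 unconverted reads, 8 had at least 1.5 times the depth of the interior and levels from 0.0437% to 0.121%. The other 4, named after their values were seen, had levels from 0.156% to 0.198% at a depth near that of their interior. They were the high-coordinate ends of LG4_WGA71_2 and LG2_WGA24_2 and the low-coordinate ends of LG2_WGA14_2 and LG8_WGA130_2. In replicate 1 they had 0, 0, 1 and 3 unconverted reads, and in replicate 2 they had 10, 10, 9 and 9, so most of these reads came from replicate 2. At their depth a count of at least 10 gives a high level by itself, so the contrast with the 8 deep ends follows from the cut. Below the cut, the low-coordinate end of LG10_WGA165_2, also picked after its values were seen, had 7 unconverted reads and a higher level of 0.220%.

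Unconverted reads seldom fell on the same position in both replicates. At the ends 3 positions were unconverted in both replicates, with 1 read or more in each, which is 0.00132% of the end positions listed in both, while in the interior there were 79 (0.00086%) and over all sequences the share was 0.00944%. At position 2421379 of LG4_WGA73_2, 3942 bp from the high-coordinate end, 1 of 6 reads in replicate 1 and 1 of 7 in replicate 2 were unconverted. At position 196 of LG4_WGA71_2, 164 bp from the low-coordinate end, it was 1 of 93 and 1 of 154 reads, or 0.810% together (95% Wilson interval 0.222% to 2.90%). This position lies where the ends are deepest, and its 48 listed neighbours within 100 bp had a median of 17 summed reads. The third position was 9790 of LG8_WGA130_2, 9760 bp from the low-coordinate end and thus just inside the limit, with 3 of 34 and 5 of 27 reads, or 13.1% together (6.80% to 23.8%).

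A test of single positions asked, over the whole table of all sequences and for depths of 5 reads or more, whether the unconverted reads exceed what the overall rate of the replicate gives. At the ends, 34171 positions were tested in replicate 1, 57538 in replicate 2 and 20269 in both. In replicate 1 a single end position passed, while 0.00112% of all tested positions did, and in replicate 2 it was 1 as well, while 0.000338% of all did. This 1 position passed in both replicates, while 0.000809% of all positions tested in both did. It was position 9790 of LG8_WGA130_2 (exact binomial test, one-sided, p adjusted by Benjamini-Hochberg = 0.0319 in replicate 1 and 2.11e-06 in replicate 2). With an unadjusted threshold of 0.05, 2 of the 20269 end positions passed in both replicates. In the interior it was 24 of 408954 and over all sequences 107 of 741824. Both end positions were among the 3 shared ones, and position 2421379 of LG4_WGA73_2 passed with 1 unconverted read of 6 and 1 of 7. The 33 listed neighbours of position 9790 within 100 bp had a median of 2 summed reads, and none of their 272 reads was unconverted. The closest deep neighbours were position 9792, with 38 reads in replicate 1 and 23 in replicate 2, and position 9795, with 33 and 24 reads, all of them converted. Cytosines a few bases away with a like depth thus had no unconverted read, and the excess was limited to this position. It did not pass against a background of 1%.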

How the data were processed

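Reads were trimmed by the authors (their processing notes name Trimmomatic 0.32) and mapped with BSMAP to version 3.0 of the beetle assembly. Picard was used against duplicates, and the methratio script of BSMAP gave the reads of each cytosine. In the deposited tables, the values are raw read counts per position for each replicate, without normalization, strand or sequence context. The column with the small sum was taken as unconverted reads. The other cannot be a total, because 2292 positions of replicate 1 have unconverted reads but a 0 there, so depth is the sum of both. Mapping and the removal of duplicates decide how many reads a repeat receives and could not be varied.

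Both tables were joined on sequence and position with scipy 1.17.1, numpy 2.4.6 and pandas 2.3.3 in Python 3.11.15 (figures with matplotlib 3.10.9). Depth and density of ends and interior were compared within sequences with exact sign tests in each replicate, and unconverted with converted reads with Fisher's exact test. The threshold was 0.05 in both replicates with the same direction. Scripts were tested on simulated data. With 1 condition and 2 pools, no test over animals was possible.

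Named regions are the 3 ends with the highest and the lowest depth ratio, the 3 with the most unconverted reads and all linkage groups. Named positions are those shared between replicates (up to 5) or passing the site test. The members, lists and tests were chosen with earlier results of these data known. Genes were not analysed here, because the gene table at hand is of another assembly.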

Additional observations from a re-analysis of the deposited data

How the results depend on the processing

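Depth at the ends stayed above the interior, past the threshold in both replicates, under 8 of the 13 alternatives that use both. These 8 include ends of 1000 bp, a width chosen after the profile was seen, and leaving out the X chromosome, neither of which was planned. The median ratio fell to 1.02 with ends of 20000 bp, to 1.01 for the low-coordinate and 1.01 for the high-coordinate end alone, and to 1 for median reads per position, where most sequences are tied, and none of these passed in both replicates. Without the first 1000 bp, an alternative added after seeing the data, it was 0.992. The density ratio passed with at least 5 reads (1.13) and with ends of 1000 bp (1.10), and turned to 0.9997 for the low-coordinate end. The non-conversion ratio passed in both replicates under no alternative, although replicate 2 alone had a p of 0.0288 without the first 1000 bp and of 0.0397 without the X chromosome (two-sided Fisher's exact test), and it fell below 1 with ends of 5000 bp (0.983), with at least 5 reads (0.968), with at least 10 reads (0.973) and with ends of 1000 bp (0.825). The single position above background was lost with ends of 5000 bp and with a background of 1%, which leaves 0. The number of ends with at least 1.5 times the depth was 17 with ends of 20000 bp, 39 with ends of 5000 bp and 20 without positions of over 100 summed reads, where 26 are reported. The causes were not tested. Leaving out either replicate gave depth ratios of 1.04 and 1.04, density ratios of 1.02 and 1.02, non-conversion ratios of 1.03 and 1.06, 1 position above background, and 27 to 29 deep ends, and shared positions cannot be counted in 1 replicate. No paired analysis was possible because there is no other group whose replicates could be paired with these. Ends and interior were compared within each replicate and sequence. At about 2 reads per position, the level of a single end position is rarely known.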

Other observations

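Unconverted positions lay close together in replicate 2 at the ends as elsewhere. Of its 615 unconverted end positions, 49 followed another within 10 bp (7.97%), compared with 1527 of 20135 in the interior (7.58%). In replicate 1 there were 3 such pairs among 310 end positions (0.968%) and 70 among 10194 in the interior (0.687%). The difference between the replicates was therefore present at the ends and in the interior alike, and its cause was not tested. At the ends, 41 of the 310 unconverted positions of replicate 1 and 73 of the 615 of replicate 2 were covered by a single read, which was the unconverted one. In the interior it was 1962 of 10194 and 2539 of 20135. The median depth of all unconverted end positions was 4 reads in each replicate, while that of all end positions was 2 reads. Unconverted interior positions had a median of 3 reads in replicate 1 and 4 in replicate 2.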
